A study of Mus musculus with 25 samples.

Results

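The 8 genes described here encode precursors of neuropeptides of the cortex, namely Sst, Npy, Vip, Cck, Cort, Tac1, Penk and Pdyn. They were taken by gene symbol from an expression table of 23990 genes, and all 8 were found. The study sequenced total RNA of the prefrontal cortex in 25 samples from wild-type C57BL/6 mice aged 10 weeks, in 6 groups. Female and male mice were exposed to social defeat under vehicle, exposed to it under dihydrocaffeic acid and malvidin-glucoside, or kept as controls. Social defeat is a stress procedure in which a mouse is exposed to an aggressor. The design asks how stress and the plant compounds act on the transcriptome in each sex. The values below come from the 5 libraries of stressed, vehicle-treated males, whose vehicle dosing began 2 weeks before social defeat and went on throughout it. Column names in the table combine a letter with a number, and E is the sole letter whose numbers reach 5. Stressed, vehicle-treated males are the only group with samples numbered to 5. This assignment reads the letter as the group and gives the libraries the column numbers 1 to 5. The labels tie the other 20 columns to no group by name, so they were not used here, and no effect of stress, treatment or sex was compared.

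Neuropeptides are cut from larger precursors in the secretory pathway, stored in dense-core vesicles and released to act on G protein-coupled receptors. In the cortex, GABAergic interneurons are commonly classed by the peptide they make. Somatostatin cells target the dendrites of pyramidal neurons, VIP cells largely inhibit other interneurons, and CCK is made by a class of basket cells and by many pyramidal neurons. Tac1, Penk and Pdyn are also strongly expressed by striatal projection neurons, beside the cells of the cortex that make them.

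Reads assigned to genes numbered 34565147 to 44265039 per library, and an error given below is the SD over libraries (n = 5). Whether the 5 libraries represent 5 different mice is not stated in the labels, and p-values measure only the spread between these libraries. Levels within a gene are in CPM, its reads scaled by the effective library size behind the deposited values. Levels between genes are in RPKM, which is CPM per kilobase of annotated exon. The male label was checked with the Y-linked gene Ddx3y at 47.1 to 53.8 CPM and with Xist, expressed in female cells, at 0.0580 to 0.269 CPM. Of the cortical markers, the pyramidal genes Nrgn, Camk2a and Slc17a7 stood at 1561 ± 223, 3402 ± 424 and 1926 ± 94.3 CPM. Library 4 held the highest level of 7 of 7 upper layer, 5 of 5 leptomeningeal and 9 of 10 immediate early genes of at least 1 CPM. It held the highest value of 26.8% and the lowest value of 23.5% of all genes of at least 1 CPM. Library 3 held the highest value of 10 of 10 mature oligodendrocyte genes. Each peptide gene is therefore also given without library 4 where that library is its highest or lowest. Leaving out the highest or lowest library narrows the span of a gene whatever the data, so a narrower span is a description only.

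Promoter sequences are shown for the 5 peptide genes whose RefSeq window holds the core of the cyclic AMP response element, through which CREB acts, and for Pdyn, which varied most between libraries. The element is TGACGTCA and its core TGACG, searched on both strands from 250 bases before to 50 bases after the RefSeq transcription start (GRCm38.p6). A window was found for 7 of the 8 genes, all but Penk. The full element, which contains the core on each strand, was found in Sst alone among these 7, and in 1.79% of all 32851 windows. The core was found in Sst, Vip, Cck, Cort and Tac1, and in 20.8% of all windows. The 120 bases before the start are printed on the strand of the gene, with the core or its reverse complement CGTCA in capitals.
Sst, chr16:23890845-23890964, minus strand: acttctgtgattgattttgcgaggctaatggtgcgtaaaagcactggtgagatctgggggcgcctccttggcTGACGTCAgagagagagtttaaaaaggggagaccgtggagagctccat
Vip, chr10:5639098-5639217, plus strand: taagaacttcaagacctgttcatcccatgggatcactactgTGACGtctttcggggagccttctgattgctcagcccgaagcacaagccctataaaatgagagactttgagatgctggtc
Cck, chr9:121495695-121495814, minus strand: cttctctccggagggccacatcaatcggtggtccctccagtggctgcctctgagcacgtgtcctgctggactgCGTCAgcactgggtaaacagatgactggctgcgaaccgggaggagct
Cort, chr4:149126764-149126883, minus strand: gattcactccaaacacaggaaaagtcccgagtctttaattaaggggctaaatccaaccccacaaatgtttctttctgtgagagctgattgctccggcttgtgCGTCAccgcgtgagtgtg
Tac1, chr6:7554941-7555060, plus strand: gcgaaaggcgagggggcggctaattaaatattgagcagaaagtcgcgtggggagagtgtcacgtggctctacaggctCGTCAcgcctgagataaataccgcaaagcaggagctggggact
Pdyn, first of 2 windows, chr2:129699939-129700058, minus strand: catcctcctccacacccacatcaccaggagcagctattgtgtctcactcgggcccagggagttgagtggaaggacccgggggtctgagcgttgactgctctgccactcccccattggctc
The first base of the match lies 48 bases before the start in Sst, 79 in Vip, 47 in Cck, 18 in Cort and 43 in Tac1, which has another match 197 bases before it. These distances are from the RefSeq start. The gene coordinates given below place the starts of Sst and Tac1 farther upstream, so their printed matches lie inside those gene spans. The start of Pdyn lies farther downstream in those coordinates, at 129699844, so its printed bases do not adjoin the gene span. A match describes the letters only and is not a binding site shown to be used here.

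By level the 8 genes fell into an abundant set of 3 and a scarcer set of 5. Per kilobase of exon, Sst stood at 450.5 ± 65.3 RPKM, Cck at 280.2 ± 27.4 RPKM and Npy at 179.6 ± 19.4 RPKM, at places 36, 86 and 151 among 23846 genes with an annotated length. Penk followed at 21.8 ± 2.64 RPKM and Cort at 20.4 ± 3.35 RPKM. Tac1 stood at 8.07 ± 0.975 RPKM, Vip at 7.72 ± 1.76 RPKM and Pdyn at 5.47 ± 2.09 RPKM. The gap between Npy and Penk was 8.24-fold. Neighbours in this order whose ranges over libraries overlapped were Penk with Cort, Tac1 with Vip, and Vip with Pdyn. Penk was above Cort in 3 of 5 libraries, Tac1 above Vip in 2 of 5 and Vip above Pdyn in 5 of 5. The order of Sst and Cck depends on the length used. With the longest transcript in place of the union of exons, Cck stood at 457.6 ± 44.7 RPKM and Sst was unmoved at 450.5 ± 65.3 RPKM, because the length of Cck became 799 instead of 1305 bases. Together the 8 genes took 0.0887% to 0.0975% of the reads, and Sst and Cck took 73.9% to 77.4% of the reads of the 8.

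**Figure D1:**
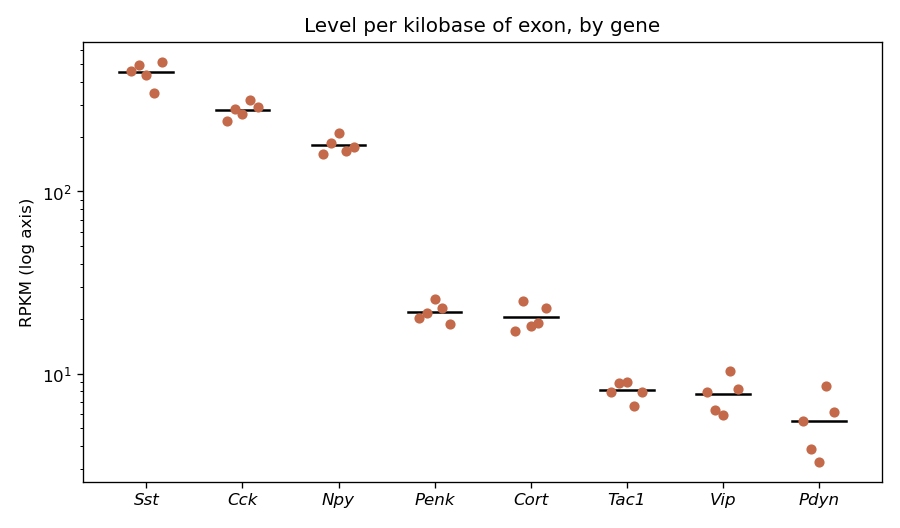
RPKM on a log axis (vertical) of the 8 peptide genes (horizontal), with points for the 5 libraries in the order 1 to 5 and a bar at their mean. Sst, Cck and Npy lie between 161 and 512 RPKM in all 5 libraries, and the other 5 genes between 3.28 and 25.7 RPKM.

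All 8 genes varied between libraries by more than counting error (chi-square test of reads, largest Benjamini-Hochberg adjusted p = 2.23e-11, for Cort). The same test called 74.4% of all 19239 genes tested, so a call of this kind was common in these libraries. The genes had 423 to 15444 reads per library, with a counting error of 4.86% at the fewest and 0.805% at the most. The SD of log2 expression had a median of 0.20 over the 8 genes, against 0.13 over all genes at 1 CPM or more. After counting error was removed, the coefficient of variation was 38.0% for Pdyn, 22.6% for Vip, 15.8% for Cort and 14.5% for Sst. It was 11.8% for Penk, 11.7% for Tac1, 10.7% for Npy and 9.73% for Cck, against a median of 8.24% over all genes of at least 1 CPM. Among the 501 genes nearest in level, 99.6% had a smaller log2 SD than Pdyn, 97.6% than Vip and 96.8% than Sst, and 80.4% to 87.6% than the other 5. In these bulk samples, fewer cells of a type and less RNA per cell cannot be told apart.

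**Figure D2:**
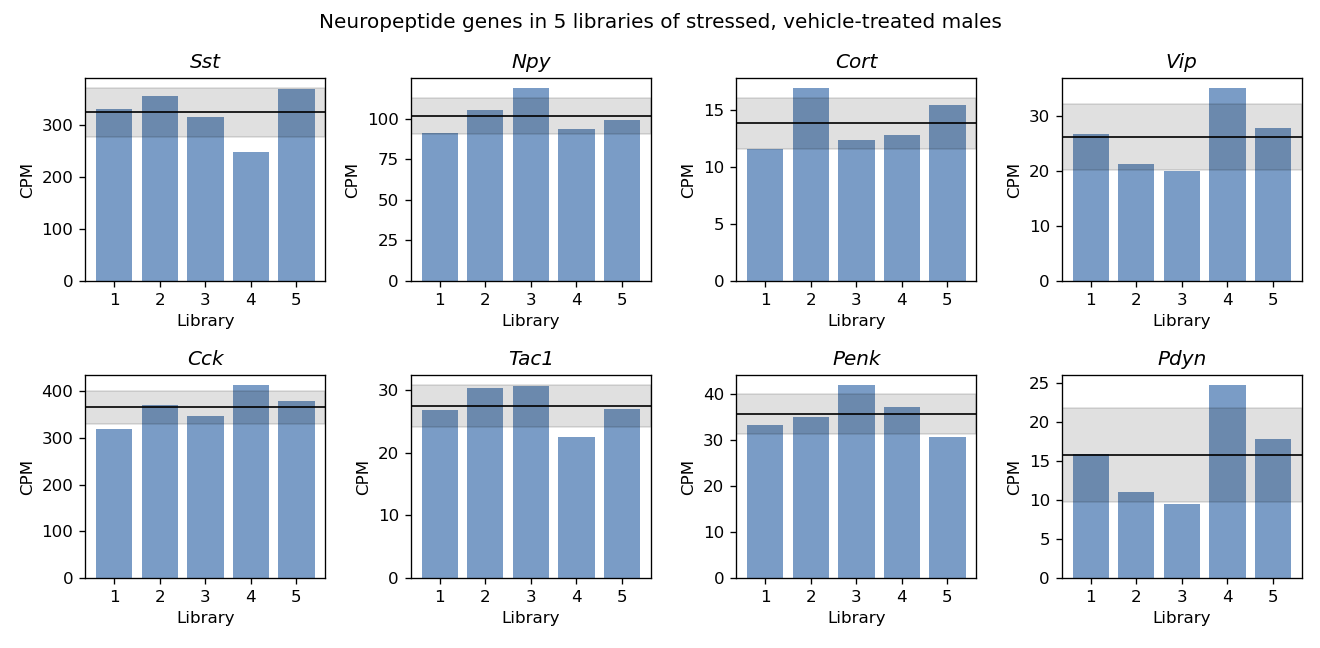
CPM (vertical, from 0) of each peptide gene in libraries 1 to 5 (bars), with the mean as a line and the SD (n = 5) as a grey band. Vip, Cck and Pdyn are highest in library 4, at 35.1, 414 and 24.7 CPM, and Sst and Tac1 are lowest there, at 249 and 22.5 CPM.

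Sst (chromosome 16, 23889573 to 23890958, minus strand, GRCm38) encodes somatostatin, which inhibits release from neurons and dampens excitability. It stood at 332, 357, 316, 249 and 369 CPM in libraries 1 to 5, with a mean of 325 ± 47.1 CPM. Library 4 was the lowest, 0.726-fold the average of the rest, and the other 4 lay within a factor of 1.17. Without library 4 the SD of log2 expression was 0.10 instead of 0.22. The span of Sst relative to other interneuron genes depended on the gene. Lhx6 and Sox6 are transcription factor genes of the interneurons that come from the medial ganglionic eminence. The ratio of Sst to Lhx6 in RPKM was 88.8, 83.1, 87.1, 72.0 and 86.7 in libraries 1 to 5, a span of 1.23-fold, against 1.48-fold for Sst itself. The ratio of Sst to Gad1, the gene of a GABA-synthesizing enzyme, was 13.9, 14.8, 11.4, 8.35 and 16.2, a wider span of 1.94-fold. Lhx6 was also lowest in library 4, at 23.1 CPM, where the other libraries held 24.2 to 28.7 CPM. Gad1 and Crhbp were highest there, at 316 and 28.7 CPM, and Sox6 stood at 25.8 CPM, within its range of 24.3 to 25.9 CPM. Of the 18 interneuron markers, 5 were lowest and 4 highest in library 4.

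Cort (chromosome 4, 149125034 to 149126763, minus strand) encodes cortistatin, a relative of somatostatin that binds the same receptors and is known to promote slow-wave sleep. It stood at 11.6, 16.9, 12.4, 12.8 and 15.4 CPM in libraries 1 to 5. Libraries 2 and 5 were the highest for Cort and also for Sst, in the opposite order. In RPKM, Cort was at 0.0370 to 0.0547 times Sst within a library, with the highest ratio in library 4, where Sst was lowest.

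Npy (chromosome 6, 49822710 to 49829507, plus strand) encodes neuropeptide Y, made by neurogliaform cells and by part of the somatostatin cells. It stood at 91.1, 105, 119, 93.9 and 99.3 CPM, highest in library 3 and lowest in library 1. Without library 3 its SD of log2 expression was 0.091 instead of 0.15. Nos1 and Chodl mark the long-range cells that make Sst and Npy together. Nos1 stood at 74.96 ± 15.7 CPM, highest in library 5 at 101 CPM, and at 65.5 CPM in library 3. Chodl stood at 1.32 ± 0.439 CPM, with nearly equal highest values in libraries 1 and 3, at 1.733 and 1.726 CPM.

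Vip (chromosome 10, 5639218 to 5647617, plus strand) encodes vasoactive intestinal peptide. It stood at 26.8, 21.4, 20.1, 35.1 and 27.96 CPM in libraries 1 to 5. Library 4 was the highest, 1.46-fold the average of the rest, and library 3 the lowest. Without library 4 the span was 1.39-fold, against 1.75-fold with it. Other genes of interneurons that come from the caudal ganglionic eminence were highest in different libraries. Lamp5 was highest in library 4 as was Vip, Prox1 in library 3 at 22.04 CPM and Npas1 in library 2 at 23.2 CPM. Htr3a, Calb2 and Adarb2 were highest in library 1, although Adarb2 did not pass the chi-square test (adjusted p = 0.075). Npas1 and Adarb2 were lowest in library 4, at 16.3 and 11.1 CPM. Like Vip, Htr3a and Calb2 were lowest in library 3, at 3.07 and 6.77 CPM. The serotonin receptor gene Htr3a was at 3.83 CPM in library 4 and 5.17 CPM in library 1, and calretinin, Calb2, at 7.48 and 8.71 CPM.

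Cck (chromosome 9, 121489824 to 121495694, minus strand) encodes cholecystokinin. It stood at 319, 371, 346, 414 and 379 CPM, with the smallest relative spread of the 8 genes. Library 4 was highest, 1.17-fold the average of the rest, and library 1 lowest. Without library 4 the span was 1.19-fold, against 1.30-fold with it. Relative to Slc17a7, the vesicular glutamate transporter of pyramidal neurons, Cck in RPKM stood at 0.744, 0.758, 0.730, 0.890 and 0.800. The endocannabinoid receptor gene Cnr1, which marks CCK basket cells, was highest in library 5, at 201 CPM, and lowest in library 3, at 167 CPM.

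Tac1 (chromosome 6, 7554879 to 7565834, plus strand) encodes substance P and neurokinin A. It stood at 26.8, 30.3, 30.6, 22.5 and 27.0 CPM, lowest in library 4, 0.783-fold the average of the rest. Without library 4 its span was 1.14-fold instead of 1.36-fold, and its SD of log2 expression 0.11 instead of 0.18.

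Penk (chromosome 4, 4133531 to 4138819, minus strand) encodes the enkephalins, ligands of delta and mu opioid receptors. It stood at 33.2, 35.1, 41.9, 37.3 and 30.6 CPM, highest in library 3 and lowest in library 5. Its exons overlap those of A830012C17Rik on the opposite strand, and no source used here says whether the counting used strand, so reads of the pair cannot be told apart.

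Pdyn (chromosome 2, 129686565 to 129699844, minus strand) encodes the dynorphins, ligands of the kappa opioid receptor. It stood at 15.9, 11.1, 9.48, 24.7 and 17.8 CPM in libraries 1 to 5. Library 4 was highest, 1.83-fold the average of the rest, and library 3 lowest. The span was 2.61-fold, and 1.87-fold without library 4. The 2 opioid precursors stood in different proportions in different libraries. The ratio of Pdyn to Penk in RPKM was 0.376 in library 4 and 0.128 in library 3.

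Vip and Pdyn shared a pattern. Each was highest in library 4, then in 5, 1, 2 and 3. They were the only 2 of the 8 genes highest in library 4 and lowest in library 3, a pattern of 4.55% of all genes of at least 1 CPM. Their log2 values, each less the mean of the gene over libraries, differed by a root mean square of 0.20, and they lay on the same side of their means in 5 of 5 libraries. Other pairs were closer by this measure, such as Cck with Cort, at 0.19 and 4 of 5. The closest was Npy with Tac1, at 0.11 and also on the same side in 5 of 5. The farthest was Tac1 with Pdyn, at 0.65 and 0 of 5. Sst and Penk lay on the same side in 0 of 5 libraries. The measure is not scaled by spread, so a small value does not require a shared direction, and Sst with Tac1 stood at 0.14 and 2 of 5. With 5 libraries no correlation across them was computed, and these values are a description.

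Among 9871 genes of at least 10 CPM, the 3 nearest to Pdyn were Rasgrf2, Igf2 and Vwf, with root mean square differences of 0.11, 0.12 and 0.13. The median over the genes searched was 0.50, a value that also depends on the spread of Pdyn itself. Rasgrf2, an exchange factor of upper layer neurons, stood at 78.9, 66.1, 55.1, 123 and 97.2 CPM in libraries 1 to 5. Igf2 is made by the leptomeninges in adult brain, and Vwf by endothelial cells. The 3 nearest to Vip were Boc, Adgrl4 and Dact2, at 0.044, 0.067 and 0.068, with a median over the genes searched of 0.30. That median depends on the spread of Vip in the same way. Boc, a co-receptor for hedgehog ligands, stood at 11.1, 8.37, 8.43, 14.8 and 11.1 CPM in libraries 1 to 5, and Adgrl4 is an endothelial adhesion receptor.

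**Figure D3:**
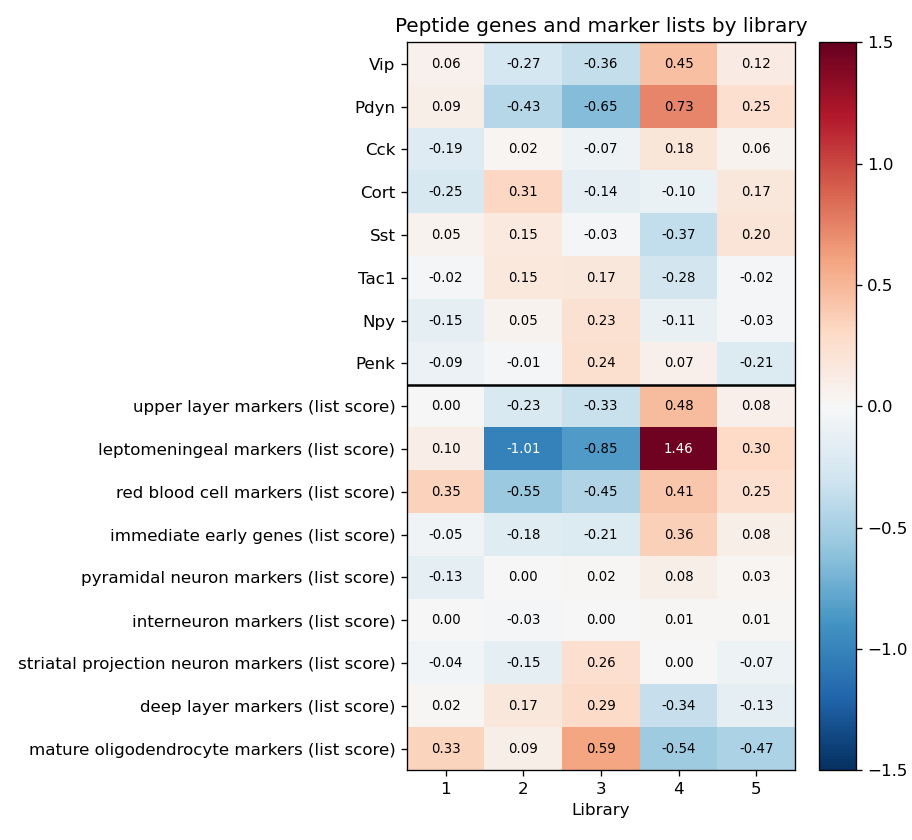
Log2 expression less its mean over the 5 libraries (colour and number), with libraries 1 to 5 across and, from the top, the 8 peptide genes and 9 marker lists, whose score is the mean over members of at least 1 CPM. Vip and Pdyn are at 0.45 and 0.73 in library 4 and at -0.36 and -0.65 in library 3, and the upper layer score is at 0.48 and -0.33 in the same libraries.

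Cortical layer markers differed between the same libraries. The score of the 7 upper layer genes was 0.48 in library 4 and -0.33 in library 3, and that of the 10 deep layer genes -0.34 in library 4 and 0.29 in library 3. The upper layer genes Calb1, Rasgrf2 and Cux2 stood at 82.4, 123 and 76.4 CPM in library 4, where the other libraries held 41.4 to 78.7, 55.1 to 97.2 and 24.1 to 54.6 CPM. The deep layer genes Rprm, Fezf2 and Tle4 stood at 79.7, 42.0 and 69.7 CPM in library 4, where the others held 106 to 138, 46.6 to 58.4 and 85.4 to 101 CPM. The deep layer gene Nxph4 was the most variable, at 5.10 CPM in library 4 and 13.4 CPM in library 3. Of the 10 deep layer genes, 7 were lowest in library 4, while Bcl11b was lowest in library 1 and Cplx3 in library 5, and Etv1 was highest in library 4 at 56.4 CPM. Vip, Pdyn and Cck were highest in library 4, as were 7 of 7 upper layer genes. Sst and Tac1 were lowest there, as were those 7 deep layer genes. Library 4 thus held the highest value of 3 and the lowest value of 2 of the 8 peptide genes. Of all genes of at least 1 CPM, 26.8% were highest and 23.5% lowest in that library. Whether the peptide counts differ from these shares was not tested. The part of layer composition in the levels of Vip, Pdyn, Cck, Sst and Tac1 was not tested. The sum of the 18 interneuron markers was 1026, 1067, 1103, 1202 and 1099.99 CPM in libraries 1 to 5, and their score lay between -0.03 and 0.01. The parvalbumin gene Pvalb, the GABA-synthesizing enzyme gene Gad1 and the vesicular GABA transporter gene Slc32a1 stood at 50.1 ± 13.98, 272 ± 31.3 and 79.7 ± 4.36 CPM. Lamp5 was the most variable of the list, at 43.5 to 119 CPM.

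Markers of striatal projection neurons, which make Penk in one class and Tac1 and Pdyn in the other, summed to 597, 609, 726, 671 and 595 CPM in libraries 1 to 5. The score of the 13 members of at least 1 CPM was highest in library 3, at 0.26, where 6 of the 13 were highest, and 5 of the 13 were lowest in library 4. The enkephalin class genes Drd2 and Adora2a stood at 2.56 and 5.43 CPM in library 3, as their highest values, where Penk was also highest. Drd1, a gene of the other class, was highest in library 3 and lowest, at 18.2 CPM, in library 4, as was Tac1. Pdyn had its highest value in library 4, where Drd1 was lowest. Ppp1r1b, Adcy5 and Rasd2 were the most abundant of the list, at 110.1 ± 21.6, 226 ± 15.9 and 58.9 ± 9.30 CPM, and Scn4b the most variable, at 45.3 to 147 CPM. Gpr6 lay at 0.418 to 1.57 CPM, and Isl1 at 0.0502 to 0.209 CPM, around the floors of 0.0673 to 0.0870 CPM that 3 reads give. The part of striatal tissue in the levels of Penk, Tac1 and Pdyn was not tested.

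Other lists differed between libraries as well. The 5 leptomeningeal genes of at least 1 CPM had a score of 1.46 in library 4 and of -1.01 in library 2. All 6 genes of the list summed to 65.1 CPM in library 4 and 21.7 to 36.7 CPM in the others. Of these, Igf2, Fmod and Dcn stood at 38.4, 9.86 and 5.34 CPM in library 4. The 5 red blood cell genes summed to 177, 103, 114, 193 and 170 CPM in libraries 1 to 5, so libraries 1, 4 and 5 were high and 2 and 3 low. Hbb-bs, Hba-a1 and Hba-a2 averaged 74.7 ± 21.5, 53.9 ± 12.1 and 9.69 ± 2.59 CPM, with the division of reads between near-identical copies uncertain, and Alas2 spanned 2.66-fold. The 10 immediate early genes had a score of 0.36 in library 4, with Egr1 at 251, Arc at 165, Nr4a1 at 70.5 and Egr2 at 4.93 CPM there. The 10 mature oligodendrocyte genes had a score of -0.54 there, with 8 of 10 at their lowest, of -0.47 in library 5, with the other 2 at their lowest, and of 0.59 in library 3, where Mbp and Mobp stood at 3991 and 1266 CPM. The part of what these lists mark in the levels of Vip, Pdyn, Cck, Sst and Tac1 was not tested.

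Markers of neighbouring regions were also measured. The olfactory bulb genes Eomes and Tbx21 stood at 0 to 0.314 and 0 to 0.232 CPM, Omp at 0.0481 to 0.523 CPM and Cdhr1 at 1.61 to 2.61 CPM. Dlx1, Th and Dlx2, which cortical cells also express, stood at 33.6 ± 1.505, 6.45 ± 1.14 and 4.98 ± 0.982 CPM. The 7 listed genes in the table summed to 45.7 to 51.2 CPM. The 5 choroid plexus genes in the table summed to 1.62 to 3.10 CPM. Ttr was at 0 in libraries 1 and 3, Clic6 averaged 0.307 CPM, and Kl, the only member of at least 1 CPM, averaged 1.53 ± 0.528 CPM. The 5 claustrum and endopiriform genes in the table had scores between -0.02 and 0.05, with Gng2, Lxn and Ntng2 at 211 ± 9.01, 16.2 ± 1.32 and 29.96 ± 2.49 CPM.

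In RPKM, each receptor gene was scarcer on average than the precursor gene of its main ligand. For VIP this did not hold in every library. Vipr1 stood at 6.92 and 6.10 RPKM in libraries 2 and 3, where Vip stood at 6.29 and 5.90 RPKM. Of 18 receptor genes, 13 averaged 1 CPM or more, and of 17 tested 12 varied beyond counting error, against the 74.4% of all genes. The CCK receptor gene Cckbr was the most abundant, at 28.7 ± 2.02 RPKM, and its CPM spanned 1.17-fold between libraries. The other CCK receptor gene, Cckar, had no read in 4 libraries and 0.0502 CPM in library 5, under the floor there of 0.0754 CPM. Among somatostatin receptor genes, Sstr2 stood at 13.99 ± 1.56, Sstr1 at 9.70 ± 0.703, Sstr4 at 9.38 ± 1.20 and Sstr3 at 7.62 ± 1.05 RPKM. All 4 were lowest in library 1, and Sstr5 lay at 0 to 0.464 CPM.

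Among neuropeptide Y receptor genes, Npy1r stood at 4.83 ± 0.677 RPKM, Npy5r at 1.03 ± 0.0664 and Npy2r at 0.975 ± 0.218 RPKM. Npy5r did not pass the chi-square test (adjusted p = 0.819). For VIP, Vipr1 stood at 6.13 ± 0.499 RPKM, and Vipr2 at 0.232 to 0.583 CPM. The tachykinin receptor gene Tacr1, for substance P, stood at 0.455 ± 0.0987 RPKM and at 2.03 CPM in library 4, its lowest, as for Tac1. Tacr2 and Tacr3 averaged 0.196 ± 0.0907 and 0.491 ± 0.0550 CPM.

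Opioid receptor genes stood at 8.17 ± 0.719 RPKM for Oprd1, the delta receptor, 1.83 ± 0.399 RPKM for Oprk1, the kappa receptor, and 0.164 ± 0.0199 RPKM for Oprm1, the mu receptor. Oprk1 had the largest spread beyond counting error of the receptors of at least 1 CPM, with 13.1, 21.1, 18.9, 12.8 and 17.9 CPM in libraries 1 to 5. It was lowest in library 4, where its ligand precursor Pdyn was highest.

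**Figure D4:**
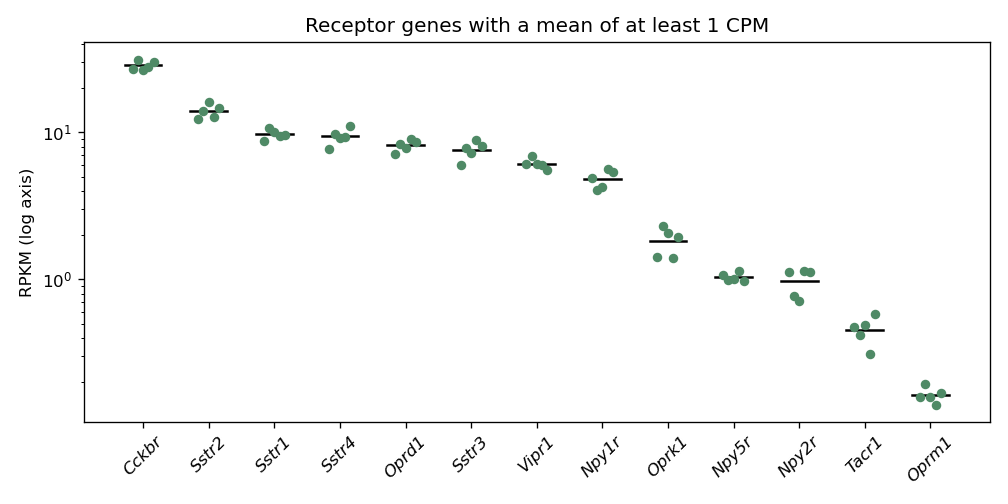
RPKM on a log axis (vertical) of the 13 receptor genes averaging 1 CPM or more (horizontal), with points for libraries 1 to 5 and a bar at the mean. Cckbr is highest at 28.7 RPKM and Oprm1 lowest at 0.164 RPKM.

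Genes that process and store the peptides covered a wide range of levels, with means of 0.510 RPKM for Mme to 874 RPKM for Cpe. All 13 genes of this list had at least 1 CPM, and 13 of 13 varied beyond counting error, against the 74.4% of all genes. Cpe, the carboxypeptidase that trims the cut peptides, stood at 874 ± 25.2 RPKM, and its CPM spanned only 1.07-fold, highest in library 1 and lowest in library 4. Pcsk1n, an inhibitor of the convertase PC1, stood at 326 ± 27.3 RPKM and the vesicle protein gene Chgb at 162 ± 18.4 RPKM. Of the convertases, Pcsk2 was at 46.5 ± 6.01 and Pcsk1 at 3.70 ± 0.361 RPKM, and each was highest in library 4. Furin stood at 3.79 ± 0.299 RPKM and was highest in library 2, at 38.3 CPM, where library 4 held 35.2 CPM. Mme, the enkephalin-degrading peptidase neprilysin, had the largest spread, with 4.93, 4.55, 7.67, 5.77 and 6.53 CPM in libraries 1 to 5, and was highest in library 3 as was Penk.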

How the data were processed

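Total RNA of prefrontal cortex was sequenced, and the deposited table gives log2 values per gene. The tools named per the submitters' processing notes are edgeR, Subread 1.6.3 with featureCounts, STAR 2.6.1d and SAMtools 1.9, and the builds named are GRCm38 and mm10. Which annotation, strand setting and filter were applied is not given in the sources used here. The table has 25 sample columns, of which 20 could not be tied to a group and were not used. From the values, the deposited log2 figure is that of a CPM, with 0.5 reads added before scaling by effective library size. Taking each column's minimum as 0 reads, 100% of values came out whole within 1e-06 reads. Effective sizes were 0.998 to 1.04 times the summed reads. Every pair of libraries differed in at least 5653 genes, so none was counted as a duplicate.

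Reads, CPM and RPKM were computed from these values (scipy 1.17.1, pandas 2.3.3 and numpy 2.4.6 under Python 3.11.15, figures with matplotlib 3.10.9), with union exon lengths and coordinates of GENCODE M21 (GRCm38). Symbols matched 23846 of 23990 identifiers. Promoters are from RefSeq. Variation was tested by chi-square on reads (4 degrees of freedom, p-values adjusted by Benjamini-Hochberg across genes averaging 5 reads or more, threshold 0.05), checked on simulated data. It and the floors cover counting error only. The 8 genes, the 15 other lists (154 genes, 151 in the table) and the tests were chosen with earlier results of these data known. A list score averages, over members at 1 CPM or more, each gene's log2 deviation from its own mean. Named genes are the members, all receptors, the 3 most abundant per length and the most variable of each list, the sex checks, and the 3 nearest patterns to the 2 most variable members; 1 gene that the rule names is not reported here. Other genes, such as Lhx6, Sox6, Crhbp, Prox1, Npas1, Adarb2, Bcl11b, Cplx3, Etv1, Furin, Nos1, Chodl, Htr3a, Calb2, Cnr1, Drd1, Drd2, Adora2a, Gpr6, Isl1, Eomes, Tbx21, Omp, Cdhr1, Pcsk1 and Pcsk2, were named after their values were seen. Alternatives were scaling, reads added before the log, the filter, transcript length and leaving out each replicate.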

Additional observations from a re-analysis of the deposited data

Results flagged for a closer look

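Dixon's ratio was computed for 82 list scores and named genes. It set 1 library apart from the rest in 3 genes, where about 4.1 would be set apart by chance. None of the 8 peptide genes and no list score was among them. Lamp5, a gene of neurogliaform interneurons and some upper layer neurons, stood at 119 CPM in library 4, where the others held 43.5 to 56.3 CPM. The leptomeningeal gene Fmod stood at 9.86 CPM in library 4, where the others held 1.03 to 2.66 CPM. The interneuron transcription factor gene Dlx2 stood at 6.68 CPM in library 3, where the others held 4.21 to 4.86 CPM.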

How the results depend on the processing

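Across the 8 genes and the settings tried, variation beyond counting error was called in 72 of 72 values. Mean levels moved by less than 1 SD in 56 of 56 values. Leaving out 1 of 5 libraries can never move a mean that far, so for mean levels only the changes of scaling were a test. Neighbouring pairs keeping their order by RPKM numbered 6 of 7 with the longest transcript, where Cck passed Sst, and 5 to 7 on leaving out replicates in turn. Without replicate 2 or 3 Vip was above Tac1, and without replicate 3 Cort was above Penk. SDs of log2 expression moved beyond their error in 3 of 72 values, for Sst and Tac1 without replicate 4 (0.10 and 0.11) and Npy without replicate 3 (0.091). No paired analysis was possible because the columns used belong to a single group. With 5 libraries of 1 group, no condition was compared.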

Other observations

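Of 14 other peptide precursor genes, 9 averaged 1 CPM or more, and 9 of 11 tested varied beyond counting error, against 74.4% of all genes. Vgf, a secreted precursor induced by neurotrophins, was the most abundant, at 132 ± 13.2 RPKM. Grp, the precursor of gastrin-releasing peptide, stood at 5.90 ± 2.48 RPKM and had the largest spread of those of at least 1 CPM, with 10.2, 6.51, 4.78, 7.89 and 14.2 CPM in libraries 1 to 5. It was highest in library 5 and lowest in library 3. Adcyap1, the precursor of PACAP, stood at 4.36 ± 1.06 RPKM, also highest in library 5 and lowest in library 3, at 20.7 and 10.9 CPM. The nociceptin precursor gene Pnoc was lowest in library 4, at 4.00 CPM, where the others held 6.10 to 6.18 CPM. The hypothalamic precursor genes Oxt, Avp and Hcrt averaged 0.123, 0.0417 and 0.120 CPM. Grp, Adcyap1 and Vgf follow the rule for named genes, and the others were named after their values were seen.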
